A study of Equus caballus with 68 samples.

Results

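Bone marrow mononuclear cells (BMNC) of 7 Thoroughbred horses were compared after 10 days of culture in inflamed synovial fluid (ISF) or in healthy synovial fluid (SF), with 1 library per horse and fluid. The 14 libraries were taken by their labels alone, out of 68 in the series, and each ISF library was joined to the SF library of the same horse: Catnip, Dealings, Dreamer, Lurie, Moon, Ollie and RimRun. BMNC are the mononuclear fraction of a marrow aspirate, obtained by density gradient. The donors were adult horses of 3 to 9 years, 2 females and 5 geldings, none genetically altered. Both fluids came from the donor's own joints and were freed of cells before use. SF was drawn from healthy middle carpal joints. ISF came from radiocarpal joints in which a small dose of lipopolysaccharide had caused synovitis, at the peak of that inflammation. The fluids thus differed in joint as well as in inflammation, and these cannot be told apart. The fluid was the culture medium, it was topped up with more of the same fluid during culture, and the cells of a single well were sequenced per horse, fluid and time. A difference between the fluids therefore spans animals and wells together. The p-values rest on the spread of libraries within the 9 groups of fluid and time in the series. The main fit has no term for horse, so it treats the libraries of a horse as independent and does not use the pairing. A fit with horse as a replicate block is given as an alternative.

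Marrow monocytes placed in culture attach and become macrophages, which engulf debris, digest it in lysosomes, present antigen on MHC class II molecules and release chemokines and matrix-degrading proteases. Macrophages also retune their metabolism: exposed to inflammatory signals they commonly run more glycolysis, and macrophages of healthy synovium are known for clearance of fluid and debris. BMNC also bring T, NK and B lymphocytes, granulocyte precursors and a few stromal cells, each of which adds RNA to a library of the whole well. In such bulk libraries, fewer cells of a type and less RNA per cell cannot be told apart.

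Values are GeTMM, reads per kilobase of gene scaled to the size of each library, so levels of different genes can be set side by side. Differences are log2 fold changes of ISF over SF on the log2(GeTMM + 1) scale, which understates changes of weakly expressed genes, with a standard error (SE) and a false discovery rate (FDR) over all 14570 genes tested. The libraries held 18818172 to 25529823 reads on genes in ISF and 19885012 to 27096384 in SF. ISF libraries had 15112 to 15732 genes above 0 and SF libraries 16059 to 16975, with no overlap. Mitochondrially encoded genes took 2.45% to 5.18% of all GeTMM in ISF and 1.46% to 3.05% in SF.

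All 14 libraries carried the markers of macrophages. CD68, a lysosomal membrane protein of macrophages, measured 2805, 3924 and 4548 GeTMM (lowest, median and highest) in ISF and 2592, 3131 and 3745 in SF, and CSF1R, the receptor of macrophage colony-stimulating factor, 223, 296 and 387 against 183, 283 and 397. Neither differed between the fluids at FDR under 0.05 (log2 difference 0.25, FDR 0.25, and 0.01, FDR 0.99). The mean of 10 macrophage identity genes was 8.46 to 8.95 in ISF and 8.24 to 8.81 in SF on the log2 scale. In the fit, 2 of the 10 were higher in ISF and none lower: CD14, a co-receptor for lipopolysaccharide, at low levels in both fluids (median 4.35 against 1.50 GeTMM, log2 difference 1.32, SE 0.33, FDR 0.0023), and FCER1G, an Fc receptor subunit (2149 against 1513, 0.42, SE 0.15, FDR 0.029). FCER1G missed the threshold without Catnip (FDR 0.077), Dreamer (0.15) or Lurie (0.15).

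Of the 14570 genes, 3027 (20.8%) differed between ISF and SF at FDR under 0.05. In ISF, 1449 (9.95%) were higher and 1578 (10.8%) lower, of which 344 (2.36% of all genes) and 580 (3.98%) changed at least 2-fold, 924 (6.34%) in all. The shares of 9.95% and 10.8% are the background for the list counts that follow. The 7 horses gave the same sign for 1952 of the 3027 genes. Moon had the smallest differences between its 2 libraries, with a root mean square of 0.60 log2 units over all genes, and Dealings the largest, 0.91. Without Dealings the count was 1945, and with horse as a replicate block 3943 (27.1%, with 12.6% higher and 14.5% lower), all 3027 included. The split of directions depended on the scaling. The median difference over all genes was -0.02 as deposited. Centring each library on its macrophage identity genes shifted that median by -0.19 and gave 505 higher (3.47%) and 2570 lower genes (17.6%), whereas centring on the median of each library gave 1795 higher (12.3%) and 1276 lower (8.76%). Both centrings called 21.1% of all genes.

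The mean levels of the T, NK and B cell lists were lower in ISF in every horse. The mean log2 level of the T cell list was 1.22, 1.65 and 1.93 (lowest, median and highest) in ISF and 2.14, 3.24 and 4.09 in SF, without overlap, and the fall ranged from 0.92 in RimRun to 2.44 in Catnip. Of 14 T cell genes tested, 12 were lower in ISF, against 10.8% of all genes, with a median log2 difference of -1.87 against -0.02 for all genes. CD3G, a chain of the T cell receptor complex, measured 0.319, 2.14 and 3.22 GeTMM in ISF and 6.31, 26.5 and 48.6 in SF (log2 difference -2.96, SE 0.42, FDR 3.2e-07). Every ISF library lay below every SF library. CD3D (-2.86, SE 0.47, FDR 6.5e-06), CD3E (-2.78, SE 0.43, FDR 2.0e-06), the co-receptor CD8A (-2.60, SE 0.53, FDR 0.00019) and the kinase LCK (-2.38, SE 0.38, FDR 3.7e-06) were lower too. CD28, a T cell costimulatory receptor, went the other way, at 83.2, 185 and 243 GeTMM in ISF and 31.8, 70.5 and 173 in SF (1.24, SE 0.39, FDR 0.018). Its level was well above that of the CD3 genes in both fluids, and its call was lost without Dreamer (FDR 0.054), Lurie (0.075) or RimRun (0.080).

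NK and B cell genes went with the T cell genes. The NK and cytotoxic list mean was 0.63, 0.77 and 0.99 in ISF and 1.08, 2.01 and 2.54 in SF, again without overlap, and 11 of its 13 tested genes were lower in ISF (median -1.14). They included GZMK, a granzyme of cytotoxic lymphocytes (-2.08, SE 0.49, FDR 0.0012), IL2RB, a chain of the interleukin-2 receptor (-1.82, SE 0.29, FDR 3.3e-06), and PRF1, perforin (-1.35, SE 0.27, FDR 0.00016). The B cell and plasma cell list mean was 0.85, 1.52 and 1.87 in ISF and 1.63, 3.20 and 4.46 in SF and was lower in ISF in all 7 horses, with 7 of 10 tested genes lower (median -1.59). CD79A, part of the B cell receptor, had medians of 3.19 and 23.7 GeTMM (-2.58, SE 0.46, FDR 2.8e-05), and MS4A1, the CD20 antigen, 1.70 and 11.5 (-2.24, SE 0.45, FDR 0.00015). JCHAIN, which joins antibodies in plasma cells, was the most abundant gene of the list at medians of 123 and 252 GeTMM and did not pass the threshold (-1.32, SE 0.55, FDR 0.075), although it did with horse as a replicate block (FDR 0.0068).

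**Figure D1:**
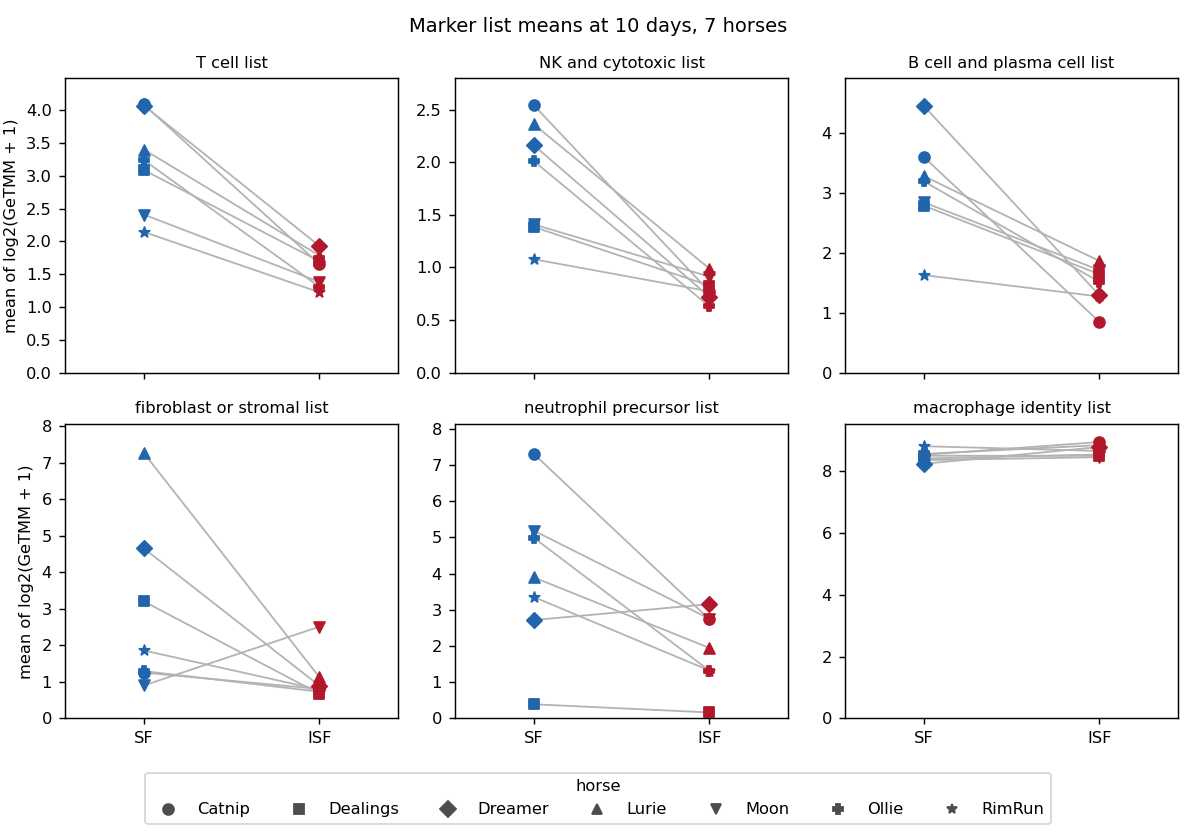
Mean log2(GeTMM + 1) of 6 cell type lists (y axis) in the SF and ISF library of each horse at 10 days (x axis), with 1 panel per list, 1 symbol per horse and a line joining the cultures of a horse. The T cell and NK means of ISF lie below all those of SF, the stromal panel is spread by SF Lurie (7.26), Dreamer (4.65) and Dealings (3.20) and by ISF Moon (2.51), and the macrophage identity means overlap.

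Stromal genes were lower in ISF in every horse but Moon, by unlike amounts. The difference of the list mean was -6.14 (Lurie) to -0.45 (Catnip) in those horses and 1.61 in Moon. The fibroblast or stromal list mean was 0.67, 0.80 and 2.51 in ISF and 0.90, 1.86 and 7.26 in SF. SF Lurie stood at 7.26, SF Dreamer at 4.65 and SF Dealings at 3.20, while Moon had more in ISF (2.51) than in SF. Of 9 stromal genes tested, 8 were lower in ISF (median -2.31), but 3 without Dreamer, 3 without Lurie and 4 in voom, run on the reads recovered from the GeTMM values. The count was 0 without the 4 libraries with a stromal mean above 2, which were left out by the mean of these same genes. COL1A1, a chain of type I collagen, measured 0.0143, 0.0470 and 13.6 GeTMM in ISF and 0.0632, 6.66 and 1359 in SF (-3.16, SE 0.89, FDR 0.0072), and it missed the threshold without Dreamer (FDR 0.071) or Lurie (0.075). COL3A1 (-3.38, SE 0.81, FDR 0.0016) and COL1A2 (-3.23, SE 0.83, FDR 0.0029) kept their calls without any 1 horse. In voom COL1A1 (FDR 0.065), COL3A1 (0.071) and DCN (0.073) were lost. The collagen-binding proteoglycans followed: DCN (-2.41, SE 0.69, FDR 0.0078) was lost without Dealings (0.052), Dreamer (0.068) or Lurie (0.093), and LUM (-2.31, SE 0.65, FDR 0.0072) without Dreamer (0.097) or Lurie (0.079). THY1, a surface protein also found on fibroblasts, was the list's tested gene that passed in neither direction, at 55.4, 104.3 and 383 GeTMM in ISF and 13.2, 208 and 550 in SF (0.36, FDR 0.78).

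The wider extracellular matrix list behaved alike, with 11 of 16 tested genes lower in ISF (median -1.63), 7 without Dreamer or Lurie and 2 without the 4 stromal libraries. The exceptions to this dependence were COL4A1, a basement membrane collagen, and PRELP, a leucine-rich matrix proteoglycan. COL4A1 measured 0.111, 0.982 and 1.15 GeTMM in ISF and 3.52, 6.64 and 67.2 in SF (-2.40, SE 0.37, FDR 2.0e-06), and PRELP 0.966, 4.05 and 16.6 against 30.4, 64.1 and 113 (-3.34, SE 0.59, FDR 2.0e-05). Neither overlapped between fluids, and both were lower without the stromal libraries (FDR 0.00067 and 0.00039). Of 4 endothelial genes tested, EMCN, endomucin (median 0.951 against 10.8 GeTMM, -2.33, SE 0.37, FDR 3.2e-06), and TEK, the angiopoietin receptor (1.43 against 3.35, -1.08, SE 0.23, FDR 0.00037), were lower in ISF. ROBO4, a guidance receptor of endothelium, stood the other way without passing (median 3.17 against 1.23 GeTMM, 0.64, SE 0.30, FDR 0.13), higher in ISF in 6 of 7 horses. CLDN5, a tight-junction protein, was at 0 in every library at 10 days but ISF Lurie.

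Granulocyte precursor genes were lower in most ISF cultures but unevenly. The list mean was 0.16, 1.95 and 3.16 in ISF and 0.39, 3.90 and 7.31 in SF, and lower in ISF in 6 of 7 horses. Of 6 tested genes, LTF (lactoferrin, a granule iron-binding protein), AZU1 and ELANE (azurocidin and neutrophil elastase of primary granules) passed, with a list median of -2.17. LTF measured 0.0257, 9.53 and 16.7 GeTMM in ISF and 0.707, 124 and 1008 in SF (-3.26, SE 1.10, FDR 0.027). The count was 0 without Catnip or Ollie, 1 without Lurie, 5 without Dealings and 5 with horse as a replicate block. In voom it was 0, with FDR 0.069 for LTF, 0.26 for AZU1 and 0.24 for ELANE. LYZ, lysozyme, made by granulocytes and macrophages, was lower in ISF in all 7 horses, from an SF median of 672 to an ISF median of 57.7 GeTMM (-2.81, SE 0.85, FDR 0.012). The difference was only -0.03 in Dreamer and -0.19 in Dealings, and -4.99 (Catnip) to -2.37 (Moon) in the others. S100A12, calgranulin C, was also lower in all 7, from 485 to 23.0 (-3.20, SE 0.95, FDR 0.010). It is 1 of 2 mature neutrophil genes tested. The other, CSF3R, did not pass, with differences of -1.79 (Moon) to 1.88 (RimRun). LTF was lost without Catnip (FDR 0.092), Lurie (0.072) or Ollie (0.086), LYZ without Catnip (0.053), Ollie (0.067) or RimRun (0.052), and S100A12 without Catnip (0.051) or Ollie (0.054). ELANE was lost without Catnip (0.12), Ollie (0.13) or RimRun (0.15), and AZU1 without these 3 horses (0.14, 0.17 and 0.098) or Lurie (0.077).

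Among the dendritic cell genes, 3 of 8 were lower in ISF and none higher, against 10.8% and 9.95% of all genes. LAMP3, a lysosomal protein of mature dendritic cells, had medians of 1.00 and 6.09 GeTMM (-1.72, SE 0.35, FDR 0.00019), FLT3, a cytokine receptor of their precursors, 0.994 and 3.08 (-1.17, SE 0.26, FDR 0.00050), and FSCN1, fascin, 65.9 and 168 (-0.99, SE 0.29, FDR 0.0094). In limma no gene passed among 4 erythroid, 4 mast cell, basophil and eosinophil or 4 megakaryocyte genes, with 0 at an unadjusted p under 0.05 and 0 in voom on recovered reads.

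Lymphocyte genes differed between the fluids, and stromal genes by unlike amounts in single cultures. The difference was therefore fitted again with the T cell and stromal list means of each library as covariates. The slopes came from the spread within the 9 groups of the series. In this fit 1923 genes (13.2%) differed, 1087 higher (7.46%) and 836 lower (5.74%). Of the genes called without covariates, 676 of the 1449 higher (46.7%) and 444 of the 1578 lower (28.1%) kept their call and direction, 197 turned sign and 6 of those were called the other way. Standard errors were larger, by a median factor of 1.25, and their part in the lost calls was not tested. Since the T cell means of the 2 fluids do not overlap at 10 days, a difference that follows them cannot be told apart from one that follows the fluid. A second comparison left out the 3 SF libraries and 1 ISF library with a stromal mean above 2. It called 786 higher (5.39%) and 748 lower genes (5.13%), 10.5% in all, and kept 712 (49.1%) and 687 (43.5%) of the calls, with 7 turned signs. With fewer libraries the standard errors were larger by a median factor of 1.22, while the median shift of the log2 difference was 0.003. The 45 genes singled out below were picked by size, abundance and consistency over horses, and some for passing with both covariates. Of these, 14 lost their call with both covariates and 7 without the stromal libraries. The choice favours genes that pass with both covariates. Of all 1347 genes that met the naming filter, 618 kept their call and direction in that fit. The part of lymphocyte or stromal RNA in the calls that were lost was not tested further.

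**Figure D2:**
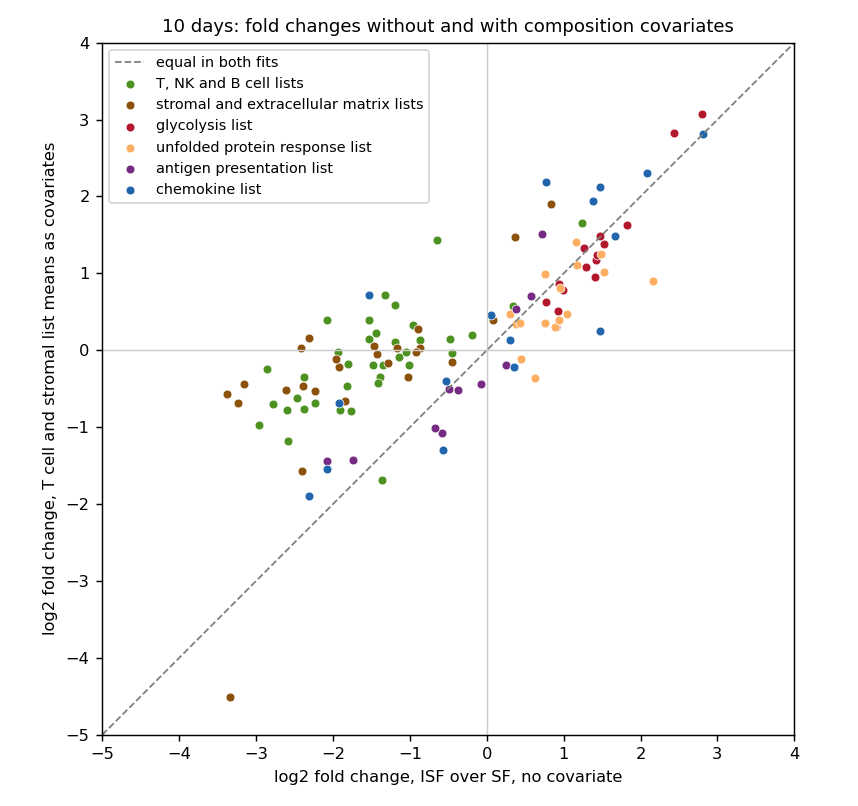
Log2 fold change of ISF over SF at 10 days without covariates (x axis) and with the T cell and stromal list means as covariates (y axis), with 1 point per tested gene of the coloured lists and a dashed line where both fits are equal. Glycolysis genes lie near that line (medians 1.40 and 1.18), while T cell genes, from which a covariate is built, move towards 0 (medians -1.87 and -0.18).

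With both covariates, the T cell list went from 12 lower genes to 1 and the stromal list from 8 to 0, which follows from the way the covariates are built. The NK list went from 11 to 1 and the B cell list from 7 to 0. Glycolysis went from 15 higher genes to 14, the unfolded protein response from 11 to 6, fatty-acid oxidation from 5 to 0 and the lipid-handling list from 4 to 1. Chemokines went from 6 higher and 3 lower genes to 5 and 1, and antigen presentation from 2 and 5 to 2 and 4. CD28 remained higher with both covariates (log2 difference 1.66, FDR 0.015), and of the CD3 genes CD3G remained lower (-0.98, FDR 0.015).

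All 15 glycolysis genes were higher in ISF, against 9.95% of all genes, with a median log2 difference of 1.40. The list mean was higher in ISF in every horse. The rise was 0.40 in Lurie and 0.46 in Moon, and between 1.33 and 2.08 in the other 5 horses. The count stayed at 15 under macrophage identity centring and without the stromal libraries, and was 14 or 15 without any 1 horse.

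The glucose transporter SLC2A1 measured 7.31, 30.8 and 86.2 GeTMM in ISF and 1.63, 2.94 and 26.2 in SF (2.80, SE 0.41, FDR 7.5e-07). The SF library of Lurie held the value of 26.2, and the SF libraries of the other horses lay below every ISF library. HK2, the inducible hexokinase that commits glucose to the pathway, measured 4.47, 16.5 and 85.6 against 0.955, 2.35 and 12.3 (2.43, SE 0.46, FDR 6.6e-05). The constitutive hexokinase HK1 rose less, from a median of 120 to 185 GeTMM (0.77, SE 0.13, FDR 1.6e-05).

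The later enzymes were abundant and rose together. GAPDH had medians of 3359 GeTMM in ISF and 1304 in SF (1.43, SE 0.22, FDR 2.0e-06), ENO1, enolase, 2138 and 864 (1.43, SE 0.20, FDR 2.9e-07), and PGK1, phosphoglycerate kinase, 778 and 271 (1.47, SE 0.19, FDR 3.6e-08). LDHA, which turns pyruvate into lactate, measured 1071, 1583 and 2395 in ISF and 402, 596 and 991 in SF (1.53, SE 0.16, FDR 3.9e-10), and PKM, pyruvate kinase, 1284, 1476 and 1576 against 441, 733 and 1039 (0.99, SE 0.16, FDR 3.5e-06). Both, and the triose isomerase TPI1 (1.29, SE 0.16, FDR 1.7e-08), had no overlap between fluids. SLC16A3, the lactate exporter, was higher in 6 of 7 horses (median 107 against 20.7, 1.83, SE 0.36, FDR 0.00010). PFKL, the liver phosphofructokinase, was the weakest call (0.90, SE 0.28, FDR 0.018). It was higher in 5 of 7 horses, and was lost without Catnip (FDR 0.12), Dreamer (0.057), Ollie (0.10) or RimRun (0.071) and with both covariates (0.61). GAPDH is often used to scale other genes, and in these libraries it differed between the fluids.

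**Figure D3:**
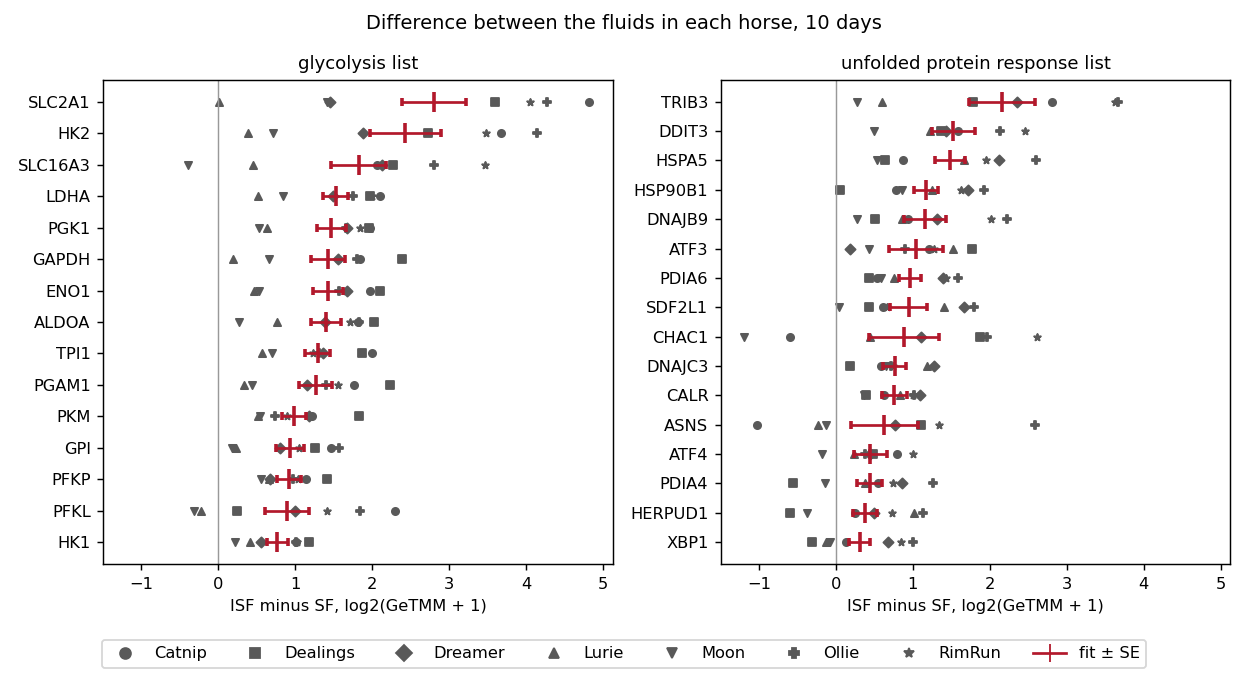
Difference of ISF minus SF in log2(GeTMM + 1) at 10 days (x axis) for each gene of the glycolysis and unfolded protein response lists (y axis), with 1 grey symbol per horse and a red mark with bars for the fitted value and its SE. The 15 fitted values of glycolysis all lie above 0, from 0.77 (HK1) to 2.80 (SLC2A1), with Lurie and Moon among the smaller differences.

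Chaperones of the endoplasmic reticulum and other genes of the unfolded protein response, the programme by which cells adjust to protein load in that compartment, were higher in ISF. The list mean was 6.42, 7.17 and 7.97 in ISF and 6.18, 6.29 and 6.36 in SF, without overlap, and the rise was 0.15 in Moon and 0.59 to 1.68 in the other horses. Of 16 tested genes, 11 were higher and none lower (median 0.92), with 9 higher under macrophage identity centring and 9 to 14 without any 1 horse. HSPA5, the reticulum chaperone BiP, measured 582, 1430 and 2796 GeTMM in ISF and 374, 437 and 462 in SF (1.48, SE 0.19, FDR 4.6e-08). HSP90B1, its HSP90 counterpart, measured 482, 1054 and 1466 against 349, 381 and 467 (1.17, SE 0.16, FDR 1.5e-07). Neither overlapped, and the SF values were much closer to each other than those of ISF.

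DDIT3, the stress transcription factor CHOP, had medians of 169 and 55.9 GeTMM (1.53, SE 0.28, FDR 3.8e-05), TRIB3, a pseudokinase induced under stress, 14.5 and 1.97 (2.16, SE 0.43, FDR 0.00015), and DNAJB9, a co-chaperone, 78.7 and 35.5 (1.16, SE 0.27, FDR 0.0011). TRIB3 did not pass with both covariates (0.91, FDR 0.22). ATF4 and XBP1, transcription factors of the response, did not pass in RNA level (0.45, FDR 0.14, and 0.31, FDR 0.11), and XBP1 did with horse as a replicate block (FDR 0.043).

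Genes of antioxidant defence and iron handling were divided. Of 14 tested, 6 were higher and 2 lower in ISF (median 0.56), against 9.95% and 10.8% of all genes. SRXN1, sulfiredoxin, measured 120, 136 and 258 GeTMM in ISF and 35.3, 64.6 and 86.4 in SF (1.37, SE 0.23, FDR 6.0e-06), without overlap. SLC7A11, the cystine transporter (1.35, SE 0.30, FDR 0.00067), and GCLM, a subunit of the enzyme that starts glutathione synthesis (1.27, SE 0.29, FDR 0.00085), were higher as well. SLC40A1, ferroportin, through which iron leaves the cell, measured 3.38, 11.6 and 17.3 in ISF and 23.7, 51.4 and 127 in SF (-2.56, SE 0.51, FDR 0.00013), again without overlap, while SLC11A1, an iron and manganese transporter of the phagosome, rose in all 7 horses from a median of 137 to 331 (1.50, SE 0.33, FDR 0.00062). With both covariates, neither SLC40A1 (-1.26, FDR 0.16) nor SLC11A1 (0.88, FDR 0.16) passed. The ferritin chains FTH1 and FTL, among the most abundant transcripts, had ISF medians of 21914 and 22143 GeTMM and SF medians of 17983 and 16741, and did not pass (0.20, FDR 0.63, and 0.26, FDR 0.47).

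Of 12 genes for matrix proteases and their inhibitors, 4 were higher and 1 lower in ISF (median 0.43), against 9.95% and 10.8% of all genes. Without Dealings 2 were higher. MMP9, gelatinase B, measured 971, 3974 and 9859 GeTMM in ISF and 186, 639 and 1371 in SF (2.58, SE 0.43, FDR 7.3e-06) and rose in all 7 horses, also with both covariates (2.35, FDR 0.0017). PLAUR, the urokinase receptor, measured 116, 148 and 282 against 15.5, 47.6 and 64.4 (2.09, SE 0.31, FDR 7.5e-07), without overlap. MMP12, macrophage elastase, rose in all 7 horses from a median of 699 to 5249 (2.82, SE 0.83, FDR 0.010), and was lost without Dealings (FDR 0.076), Lurie (0.057) or the stromal libraries (0.14) and with both covariates (0.42). TIMP1, an inhibitor of these enzymes, had medians of 701 and 207 (1.32, SE 0.39, FDR 0.011), lost without Dealings (0.088) or Dreamer (0.050). MMP1, interstitial collagenase, went down, from an SF median of 319 to 55.3 (-2.22, SE 0.50, FDR 0.00068).

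Of 18 lysosomal enzymes tested, 5 were higher and 1 lower (median 0.25), against 9.95% and 10.8% of all genes. Without Catnip, Dreamer or Lurie 3 were higher, and the median was -0.07 with both covariates. CTSL, cathepsin L, a cysteine protease, measured 155, 571 and 941 GeTMM in ISF and 31.6, 55.4 and 128 in SF (2.92, SE 0.32, FDR 5.1e-10). Every ISF library was above every SF library, and the difference with both covariates was 2.33 (FDR 2.3e-05). CTSZ, cathepsin Z, rose from a median of 4950 to 8624 (0.85, SE 0.19, FDR 0.00061) and the beta-galactosidase GLB1 from 237 to 399 (0.85, SE 0.15, FDR 1.2e-05), both without overlap but not passing with both covariates (0.40, FDR 0.25, and 0.34, FDR 0.14). CTSK, cathepsin K, at medians of 12980 and 5453, did not pass (0.98, SE 0.41, FDR 0.076), though it did with horse as a replicate block (FDR 0.031). ACP5, the tartrate-resistant acid phosphatase of osteoclasts, fell in all 7 horses, from a median of 563 to 272 (-1.36, SE 0.34, FDR 0.0025). ACP2, another lysosomal phosphatase, was called higher (0.52, SE 0.17, FDR 0.019) and lost without Catnip (0.079), Dreamer (0.080) or Lurie (0.12).

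Of 10 genes of osteoclasts and cell fusion, 4 were higher (2 without Dealings or Lurie) and 1, ACP5, lower (median 0.88). Of all genes, 9.95% were higher and 10.8% lower. OCSTAMP, a membrane protein needed for the fusion of precursors, measured 8.95, 24.8 and 63.2 GeTMM in ISF and 3.24, 5.03 and 8.01 in SF (2.21, SE 0.37, FDR 6.0e-06), without overlap, and ITGB3, the beta-3 integrin, rose from a median of 27.3 to 67.7 (1.53, SE 0.40, FDR 0.0032). Both kept their calls with both covariates (FDR 0.0031 and 0.039). CKB, brain creatine kinase (1.05, FDR 0.014), and TCIRG1, a proton pump subunit (0.78, FDR 0.0088), did not, and were lost without Dealings (FDR 0.15 and 0.055) or Lurie (0.055 and 0.066).

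Some of the most abundant transcripts of the cultures belong to the lipid-handling list. SPP1, osteopontin, measured 33105, 47511 and 70479 GeTMM in ISF and 5872, 25422 and 58042 in SF (1.02, SE 0.63, FDR 0.26), and GPNMB (-0.51, FDR 0.25) and APOE (-0.09, FDR 0.90) did not pass either. Of 16 lipid-handling genes, 4 were higher (median 0.45), where 9.95% of all genes were, 2 higher without Catnip, Dealings or RimRun, and 2 higher and 1 lower under macrophage identity centring. CD9, a tetraspanin, rose in all 7 horses from a median of 59.4 to 345 (2.22, SE 0.57, FDR 0.0033), and NPC2, the lysosomal cholesterol carrier, from 3899 to 5915 (0.67, SE 0.17, FDR 0.0019). Neither passed with both covariates (FDR 0.25 and 0.12). LPL, lipoprotein lipase, did not overlap between fluids, at 663, 865 and 1286 against 161, 345 and 583 (1.39, SE 0.51, FDR 0.045), but missed the threshold without any 1 of the 7 horses (FDR 0.051 without Ollie to 0.21 without Dealings) and in voom (0.053). PLIN2, the coat protein of lipid droplets (0.52, SE 0.16, FDR 0.013), was lost without Catnip (0.11), Dealings (0.053) or RimRun (0.054).

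Of 13 scavenger and clearance genes, 1 was higher and 2 lower (median -0.15), near the 9.95% and 10.8% of all genes. Without Dealings, Lurie, Ollie or RimRun, 1 was lower. With horse as a replicate block 1 was higher and 5 lower, against 12.6% and 14.5% of all genes. MSR1, the class A scavenger receptor, measured 856, 1198 and 1861 GeTMM in ISF and 259, 420 and 678 in SF (1.58, SE 0.33, FDR 0.00025), without overlap. AXL, a receptor for apoptotic cells, fell from a median of 4.43 to 1.07 (-1.63, SE 0.41, FDR 0.0023). Its difference was -3.92 in Lurie, -2.60 in Dealings and -2.17 in Dreamer, the horses whose SF libraries had a stromal mean above 2. In the other horses it was -1.30 (Ollie) to -0.31 (Catnip). The part of stromal RNA in this fall was not tested. C1QB, a chain of complement C1q, had medians of 108 in ISF and 629 in SF (-1.92, SE 0.62, FDR 0.020), and was lost without Dealings (0.088), Lurie (0.078), Ollie (0.060) or RimRun (0.084). CD163 and MRC1, commonly used markers of alternatively activated macrophages, did not pass (0.59, FDR 0.43, and -0.54, FDR 0.40).

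Chemokines moved in both directions. Of 16 tested, 6 were higher and 3 lower (median 0.33), against 9.95% and 10.8% of all genes. There were 3 higher without Dealings, 1 lower without Ollie, and 5 higher and 4 lower under macrophage identity centring. CXCL8, which attracts neutrophils, measured 25.1, 55.5 and 141 GeTMM in ISF and 1.20, 12.03 and 28.4 in SF (2.81, SE 0.48, FDR 1.3e-05), and CXCL1, with the same role, 46.3, 75.2 and 96.2 against 11.9, 28.6 and 37.4 (1.38, SE 0.34, FDR 0.0022). CCL2, the monocyte attractant, was the most abundant of the 3, at 1941, 9855 and 10136 against 372, 1756 and 3961 (2.09, SE 0.40, FDR 6.5e-05), and higher in 6 of 7 horses. These 3 kept their calls with both covariates (FDR 0.0013, 0.00083 and 0.00093). CCL3 (1.48, SE 0.46, FDR 0.015) and CCL8 (1.47, SE 0.51, FDR 0.032), which attract leukocytes, were also higher, but CCL3 was lost without Catnip (FDR 0.057), Dealings (0.089) or Dreamer (0.055), and CCL8 without any 1 horse but Lurie and Ollie (0.064 to 0.20). CCL11, eotaxin, was called higher (1.67, SE 0.49, FDR 0.0098) and lost without Dealings (FDR 0.086). The 3 lower genes were CXCL11 (-2.08, SE 0.57, FDR 0.0057), induced by interferon and lost without Ollie (0.073) or in voom (0.090), CXCL12 (-1.92, SE 0.46, FDR 0.0015), made by stromal cells, and CCL5 (-1.53, SE 0.55, FDR 0.037), made by T and NK cells. CCL5 was lost without any 1 horse but Moon and RimRun (FDR 0.059 to 0.15). None of these 3 passed without the stromal libraries (FDR 0.19, 0.40 and 0.36) or with both covariates (0.15, 0.26 and 0.40).

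Classical inflammatory cytokines were at low levels in both fluids. Of 12 inflammatory mediators, 1 was lower and none higher (median 0.03). IL1B had medians of 0.562 GeTMM in ISF and 1.85 in SF (-0.67, SE 0.33, FDR 0.15), TNF 8.43 and 5.57 (0.52, SE 0.24, FDR 0.12), and IL6 0.178 and 0.171 (-0.12, SE 0.18, FDR 0.70). The gene that passed was IL18, at medians of 45.5 and 93.7 (-0.998, SE 0.29, FDR 0.0094), lost without Catnip (FDR 0.062) or Ollie (0.077). With horse as a replicate block 2 mediators were lower.

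Of 17 resolution-associated genes, 4 were higher and 1 lower (median 0.34), and 3 were lower with horse as a replicate block or without Moon. IL4R, the receptor subunit for interleukins 4 and 13, rose in all 7 horses from a median of 305 to 660 GeTMM (1.09, SE 0.19, FDR 1.6e-05), and NR1H3, the cholesterol-sensing receptor LXR-alpha, from 85.4 to 162 (0.80, SE 0.21, FDR 0.0045). TNFAIP6, a hyaluronan-binding protein secreted in inflammation, measured 42.4, 141 and 328 against 15.5, 55.2 and 108 (1.54, SE 0.41, FDR 0.0042). VEGFA, an angiogenic factor, was called at 1.63 (SE 0.44, FDR 0.0047) with 5 of 7 horses higher, and lost without Catnip (FDR 0.058) or RimRun (0.051). IGF1, a growth factor of macrophages and stromal cells, was lower in all 7 horses, with medians of 2.01 and 22.6 (-2.67, SE 0.66, FDR 0.0022), but not with both covariates (-0.69, FDR 0.58). IL10 had medians of 5.70 and 7.51 and did not pass (-0.31, FDR 0.63), and PPARG, a lipid-sensing receptor, lay near the threshold (-0.41, SE 0.16, FDR 0.052, or 0.041 with horse as a replicate block).

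Genes that serve MHC class II presentation were lower in ISF. Of 11 antigen presentation genes tested 2 were higher and 5 lower (median -0.38), and 0 were higher under macrophage identity centring. Without 1 horse the counts ran from 0 to 2 higher and from 2 (Dealings, RimRun) to 5 lower. CIITA, the transcriptional activator of the MHC class II genes, measured 1.21, 1.42 and 1.91 GeTMM in ISF and 5.56, 9.97 and 14.3 in SF (-2.08, SE 0.25, FDR 4.6e-09), and CD74, the invariant chain that escorts class II molecules, 176, 279 and 511 against 522, 980 and 1490 (-1.74, SE 0.32, FDR 3.4e-05). The groups did not overlap for either, and with both covariates the differences were -1.44 (FDR 0.00030) and -1.42 (FDR 0.012). CD83, an activation marker, was lower too (-0.49, SE 0.16, FDR 0.026), and lost without Dealings (0.10) or RimRun (0.10). The immunoproteasome genes PSMB8 (-0.58, SE 0.22, FDR 0.047) and PSMB9 (-0.67, SE 0.25, FDR 0.048) passed narrowly. PSMB8 was lost without any 1 horse but Moon and PSMB9 without any but Catnip and Moon, with FDR up to 0.24 and 0.32, each without Ollie. PSMB9 was lost in voom too (0.051). The costimulatory ligands CD86 (0.57, SE 0.18, FDR 0.019) and CD80 (0.72, SE 0.26, FDR 0.040) were the 2 higher genes. CD86 was lost without Catnip (0.097), Dreamer (0.091), Lurie (0.067) or Moon (0.089), and CD80 without Catnip (0.097), Dealings (0.080), Dreamer (0.10), Lurie (0.084) or RimRun (0.070).

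S100 proteins and the defensin DEFB1 gave the lowest log2 difference among the named genes, that of S100A1. Of 8 tested, 2 were higher and 4 lower (median -1.07), with 0 higher under macrophage identity centring or without Dealings. S100A1, a calcium-binding protein, measured 2.49, 9.23 and 16.2 GeTMM in ISF and 52.5, 294 and 471 in SF (-4.56, SE 0.57, FDR 2.0e-08). DEFB1, an antimicrobial peptide, measured 5.04, 12.2 and 45.9 against 70.4, 161 and 225 (-3.31, SE 0.49, FDR 8.2e-07), and S100A13 26.1, 43.2 and 77.2 against 112, 160 and 205 (-1.87, SE 0.37, FDR 0.00012). These 3 did not overlap and remained lower with both covariates (-3.10, -3.64 and -1.61). The 2 higher members were the abundant S100A11 (0.67, SE 0.19, FDR 0.0083), lost without Dealings (0.091), and S100A6 (1.49, SE 0.49, FDR 0.022), lost without Dealings (0.15), Dreamer (0.056), Lurie (0.073) or Ollie (0.070).

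The largest differences among genes with the same sign in all 7 horses included several outside these lists. SERPINB10, a serine protease inhibitor of blood cells, measured 472, 845 and 2535 GeTMM in ISF and 35.0, 105 and 317 in SF (3.21, SE 0.49, FDR 1.8e-06). TREM1, an amplifying receptor of myeloid inflammation, measured 35.2, 164 and 286 against 1.62, 29.2 and 52.5 (2.77, SE 0.46, FDR 7.6e-06). SUCNR1, the receptor for extracellular succinate, measured 144, 191 and 297 against 14.7, 32.2 and 85.3 (2.51, SE 0.43, FDR 1.1e-05), and TGFB3, a growth factor, 32.6, 89.7 and 170 against 6.39, 16.8 and 27.7 (2.56, SE 0.49, FDR 7.7e-05). SERPINB10, SUCNR1 and TGFB3 did not overlap between fluids. IL1R2, the decoy receptor that binds interleukin-1 without signalling, rose from a median of 19.8 to 136 (2.46, SE 0.41, FDR 8.6e-06), PAPSS2, which makes the sulfate donor, from 6.42 to 28.6 (2.47, SE 0.39, FDR 3.2e-06), MLLT11 from 17.5 to 156 (2.48, SE 0.54, FDR 0.00046), USP50 from 1.69 to 10.4 (2.60, SE 0.40, FDR 1.6e-06) and GOLGA7B from 1.25 to 10.4 (2.43, SE 0.35, FDR 4.1e-07). With both covariates the differences of these 9 genes ranged from 1.55 (IL1R2, FDR 0.031) to 3.38 (SERPINB10, FDR 8.0e-05), all past the threshold. Some genes were named because they passed that fit, so passing it is no separate result for them.

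Among the lower genes outside the lists, PLD4, an endolysosomal exonuclease, measured 1.17, 2.16 and 3.11 GeTMM in ISF and 6.84, 20.1 and 34.8 in SF (-2.75, SE 0.27, FDR 4.7e-11), and TMEM150B, a regulator of autophagy, 0.331, 1.93 and 2.72 against 10.9, 12.6 and 27.0 (-2.70, SE 0.25, FDR 1.2e-11). FAXDC2 had medians of 3.37 and 27.3 (-2.72, SE 0.29, FDR 2.6e-10) and TMEM92 of 0.729 and 8.11 (-2.67, SE 0.46, FDR 1.3e-05). These 4, picked for size and 1 sign in all 7 horses, did not overlap. With both covariates their differences were -2.95, -2.93, -2.16 and -4.31, all past the threshold. Passing that fit was a condition for naming some of the genes. LTB, lymphotoxin beta of lymphocytes, fell from a median of 24.4 to 2.15 (-2.92, SE 0.41, FDR 2.6e-07) and PIK3IP1, an inhibitor of PI3 kinase, from 26.8 to 3.29 (-2.76, SE 0.34, FDR 1.7e-08). Both remained lower with both covariates (-1.47, FDR 0.0063, and -1.43, FDR 0.0029). GBP6, an interferon-induced GTPase, fell in all 7 horses (-2.91, SE 0.52, FDR 2.4e-05) but did not pass with both covariates (-1.59, FDR 0.070).

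**Figure D4:**
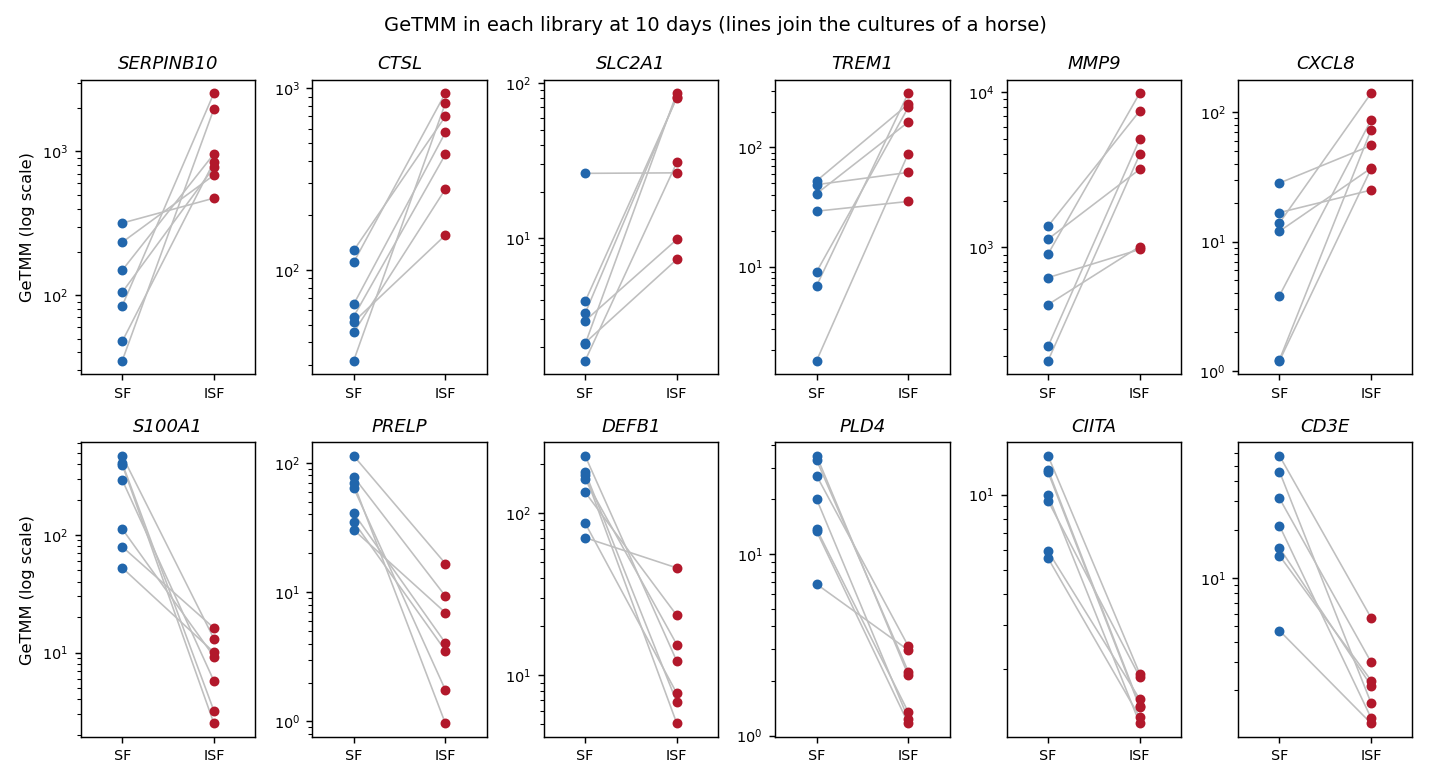
GeTMM (y axis, log scale) of 12 genes in the SF and ISF library of each horse at 10 days (x axis), 1 panel per gene, with lines joining the cultures of a horse. CTSL and SERPINB10 are higher in every ISF library than in any SF library, and S100A1, PRELP, DEFB1, PLD4 and CIITA are lower.

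Among the most abundant genes with the same sign in all horses, differences were smaller. The mitochondrially encoded cytochrome oxidase subunits MT-CO2 (median 7338 against 3838 GeTMM, 1.09, SE 0.22, FDR 0.00012) and MT-CO1 (15752 against 9565, 0.90, SE 0.20, FDR 0.00058) were higher, also with both covariates (FDR 0.029 and 0.020). PSAP, the precursor of lysosomal saposins, was higher (8380 against 5639, 0.57, SE 0.17, FDR 0.014), lost without Dealings (0.059), Dreamer (0.065) or Lurie (0.12), and at -0.008 with both covariates. ACTG1, gamma actin (0.63, SE 0.18, FDR 0.0089), was lost without Dealings (0.11). MLANA, a protein best known from pigment cells, was lower without overlap, at 53.1, 159 and 226 against 434, 634 and 1245 (-2.34, SE 0.49, FDR 0.00025), as was the lysosomal peptidase PRCP, at 140, 225 and 311 against 374, 597 and 939 (-1.49, SE 0.18, FDR 8.7e-09). DRA, a chain of MHC class II, measured 232, 343 and 495 against 526, 972 and 1405 (-1.46, SE 0.30, FDR 0.00019) and did not pass with both covariates (-0.95, FDR 0.074). TCN2, the vitamin B12 carrier transcobalamin (-0.82, SE 0.25, FDR 0.011), and SCARB2, a lysosomal membrane receptor (-0.62, SE 0.19, FDR 0.012), were lower in all 7 horses and lost without Dealings (FDR 0.071 and 0.099).

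Few sterol synthesis, interferon-stimulated or cell cycle genes passed at 10 days. Of 24 sterol synthesis genes, 1 was higher and 1 lower (median -0.02), and 2 and 3 with horse as a replicate block. STARD4, a sterol carrier (0.72, SE 0.24, FDR 0.026), was lost without Dreamer (0.074), Lurie (0.11), Ollie (0.081) or RimRun (0.070). Of 14 fatty-acid oxidation genes, 5 were higher (median 0.33; 9.95% of all genes were higher), 2 without Dealings or Dreamer, 3 without Lurie or Ollie, and 0 under macrophage identity centring or with both covariates. ETFA, an electron carrier subunit (0.72, SE 0.17, FDR 0.0012), and ACAA2, the mitochondrial thiolase (0.58, SE 0.14, FDR 0.0014), were among them. None of 15 interferon-stimulated genes passed (median -0.46) in limma, with 0 at an unadjusted p under 0.05 and 0 in voom. MX1 ranged from 13.1 to 223 GeTMM in ISF and from 19.6 to 1555 in SF. None of 14 cell cycle genes passed (median -0.26) in limma, with 2 lower at an unadjusted p under 0.05 and 0 in voom. Of these genes, 1 was lower with horse as a replicate block, under macrophage identity centring or without Moon, and 2 without Dealings.

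The same fluids were compared at 48 hours, 96 hours and 6 days, where 245 (1.68%), 1524 (10.5%) and 4405 (30.2%) genes differed. Higher in ISF were 0.872% of all genes at 48 hours, 6.16% at 96 hours and 16.7% at 6 days, and lower 0.81%, 4.3% and 13.6%. Of the 3027 genes of 10 days, 1849 were also called at 6 days, 735 at 96 hours and 96 at 48 hours. Glycolysis had 1 of 15 genes higher at 48 hours, 7 at 96 hours and 15 at both 6 and 10 days. The T cell list had 1, 4, 12 and 12 genes lower, and the unfolded protein response 0, 1, 7 and 11 higher. The stromal list had 0 genes lower at the first 3 times and 8 at 10 days, and antigen presentation 4 higher and 2 lower genes at 6 days and 2 and 5 at 10 days. These counts are no test of a change. In limma's test of the change itself from 48 hours to 10 days, 8 glycolysis genes and 3 unfolded protein response genes moved upward and 5 T cell genes and 1 antigen presentation gene downward. With horse as a replicate block these lists had 10, 6, 9 and 1 genes. Of 9 stromal genes 0 passed, with 8 downward at an unadjusted p under 0.05 and 0 with the block. From 6 to 10 days 0 genes of these 5 lists passed, against 3 stromal, 4 antigen presentation and 1 glycolysis genes downward and 6 unfolded protein response genes upward at an unadjusted p under 0.05, and 1 antigen presentation and 1 unfolded protein response gene with the block.

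Whether a difference itself changed was tested between times. The 48-hour groups hold Flash and lack Moon, the 10-day groups hold Moon and lack Flash, and those of 96 hours and 6 days hold both, so the times do not compare the same set of horses. From 48 hours to 10 days it changed for 436 genes (2.99%), 231 upward and 205 downward, or 1095 with horse as a replicate block. The range was 173 without Ollie to 1174 without Moon. SERPINB10 (change 3.75), TREM1 (2.97), CXCL8 (2.81), MMP9 (2.56) and SLC2A1 (2.45) grew upward, and PRELP (-3.47), DEFB1 (-3.52) and CD3D (-2.51) grew downward. From 6 to 10 days it changed for 33 genes (0.226%), or 270 with horse as a replicate block, 1 without Ollie and 194 without Moon. Singled out after their values were seen, the replication genes MCM2, MCM3 and MCM4 were among the 33. So was TNFAIP6, whose difference went from 4.10 at 6 days to 1.54 at 10 days (change -2.56, FDR 0.026).

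**Figure D5:**
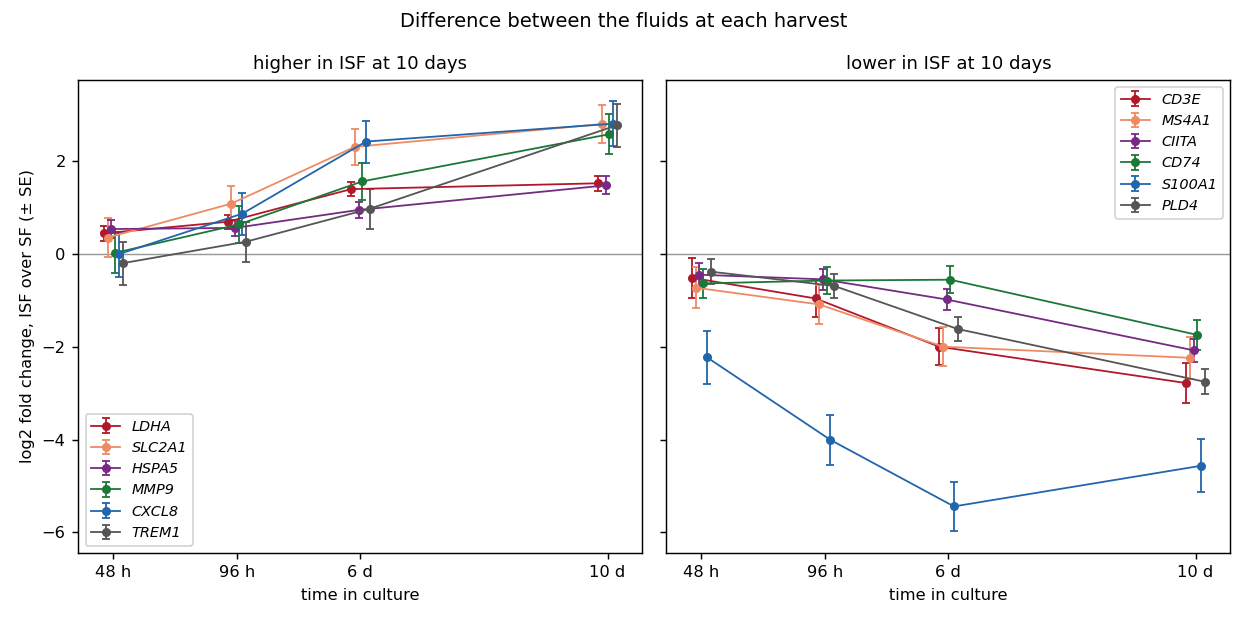
Log2 fold change of ISF over SF (y axis) at 48 hours, 96 hours, 6 days and 10 days in culture (x axis) for 6 genes higher and 6 genes lower in ISF at 10 days, with bars for the SE of the fit. At 10 days LDHA stands at 1.53 and MMP9 at 2.58 in the left panel, and CD3E at -2.78 and S100A1 at -4.56 in the right panel.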

How the data were processed

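The authors aligned stranded paired-end RNA-seq reads to EquCab3.0 with STAR 2.7.2a, counted them per Ensembl gene and deposited GeTMM, which is RPKM scaled between libraries with edgeR. Whole reads could be recovered from these RPKM-type values for depth and for the voom alternative (tolerance 0.02). Genes reaching 0.5 GeTMM in 7 or more of the 68 libraries were tested with limma 3.58.1 in R 4.3.3 on log2(GeTMM + 1), a mean per group over 9 groups, moderated with a trend, with Benjamini-Hochberg FDR under 0.05. Each horse gave both fluids, so the libraries are paired by animal; deviations from the group means correlated between the 2 libraries of a horse at 0.074 to 0.36. The block is given beside results it changes.

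The 30 gene lists hold 409 symbols. Of these, 345 were tested, 41 had no entry and 23 were below the filter. The groups and lists were chosen with earlier results of these data known. Genes named from the whole table passed FDR under 0.05 with a unique symbol, a mean of at least 5 GeTMM in 1 fluid and 1 direction in all 7 horses: the 15 largest differences each way, the 8 most abundant each way and the 10 largest each way that also passed with both covariates. From each list, up to 5 called members of largest difference were named, with members a result turned on. Groups without overlap are described gene by gene, and the share of all genes without overlap is not given. Genes picked for large differences of 1 sign tend to lack overlap. The main fit and the fit with horse as a replicate block were tested for the 10-day difference on data simulated without a horse effect. Of their calls, 10.9% and 9.47% were false, at an FDR threshold of 0.05. Both called 78% of the 2-fold and 94% of the 4-fold changes. The other fits and the changes between times were not simulated.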

Additional observations from a re-analysis of the deposited data

Results flagged for a closer look

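In 150 sets of 7 libraries of 1 fluid (30 list means and the 45 named genes, in each fluid), 10 had a library far from the other 6 by Dixon's test at 95%, where chance flags about 1 in 20. On the log2 scale, ISF Moon stood apart for the stromal list mean (2.51, the others 0.67 to 1.13) and for lysosomal enzymes (9.28, the others 9.58 to 9.78). ISF Catnip was high for the resolution-associated list (5.57, the others 4.63 to 5.01), and ISF Dealings for antigen presentation (6.96, the others 6.27 to 6.57). SF Lurie was high for the extracellular matrix list (6.28, the others 1.46 to 3.45) and for SLC2A1 (4.77, the others 1.39 to 2.298). SF Dealings was low for the cell cycle list (2.82, the others 3.93 to 4.63) and for MT-CO2 (10.76, the others 11.67 to 12.22) and high for TMEM150B (4.81, the others 3.58 to 4.01). SF RimRun was high for IL1R2 (6.57, the others 4.27 to 4.89).

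For 21 of the 45 named genes the difference between the fluids changed from 48 hours to 10 days at FDR under 0.05 in limma, by a test of that change itself. It moved upward for SERPINB10 (change of the log2 difference 3.75), TREM1 (2.97), CXCL8 (2.81), MMP9 (2.56), SLC2A1 (2.45), USP50 (2.41), GOLGA7B (2.35), HK2 (2.28) and PAPSS2 (1.88). It moved downward for DEFB1 (-3.52), PRELP (-3.47), TMEM92 (-2.63), CD3D (-2.51), CD3G (-2.41), TMEM150B (-2.38), PLD4 (-2.37), CD3E (-2.27), LTB (-2.03), PIK3IP1 (-1.81), FAXDC2 (-1.40) and PRCP (-1.09).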

How the results depend on the processing

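The number of genes differing at 10 days (3027) was 1923 with both covariates, 1890 with the T cell covariate, 1534 without the stromal libraries and 924 at 2-fold or more, and 1945 to 4086 without 1 horse. Higher genes (1449) were 505 under macrophage identity centring, 786 without the stromal libraries, 344 at 2-fold or more and 910 to 1975 without 1 horse. Lower genes (1578) were 836 with both covariates, 835 with the T cell, 1017 with the stromal and 943 with a neutrophil covariate added, 2570 under macrophage identity centring, 748 without the stromal libraries, 580 at 2-fold or more and 1035 to 2111 without 1 horse. The change from 6 to 10 days (33 genes) gave 202 with library weights, 20 with a pseudocount of 0.1, 270 with the replicate block, 99 without Moon's 6-day SF library and 1 to 194 without 1 horse. The change from 48 hours (436) gave 1641, 1095 and 979 with weights, block and without that library, and 173 to 1174 without 1 horse. The replicate block, fitted over all 68 libraries, gave 3943 genes at 10 days and ended no call among the 45 named genes. Beside the values given with it above, it changed no other call of a gene described. Fits of the 14 libraries of 10 days alone gave 3179 genes with the block and 2974 without it. In these fits 5 and 4 of the 45 named genes lost their call. The neutrophil covariate and the fit without Moon's library were chosen after seeing the data.

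Among the genes given by value, called differences turned sign in covariate fits alone. With both covariates DCN stood at 0.030, GZMK at 0.39, KLRK1 at 0.23, LUM at 0.17, CCL5 at 0.71, HADHA at -0.015, PSAP at -0.0078 and TCIRG1 at -0.076. With the neutrophil covariate added GZMK stood at 0.40, KLRK1 at 0.39, LUM at 0.12, CCL5 at 0.82, HADHA at -0.0025, PSAP at -0.034 and TCIRG1 at -0.070. The T cell covariate alone gave GZMK 0.34, KLRK1 0.25 and CCL5 0.45, and the stromal covariate alone COL1A1 0.060, DCN 0.12 and LUM 0.059. COL1A1, DCN and LUM are themselves members of the stromal list whose mean is the covariate. The cause was not tested. Some genes, such as COL1A1 (ISF median 0.0470 GeTMM), are near 0 in ISF, where the pseudocount of 1 limits the size of a difference on the log2 scale.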

Other observations

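Lists of 3 further gene groups were drawn up after the values were seen, and are given as descriptions. All 8 genes of MHC class II, including its activator and invariant chain, were lower in ISF (median log2 difference -1.86), and 5 of them with both covariates. HLA-DMA, which loads peptides onto class II molecules, measured 17.9, 29.7 and 36.4 GeTMM (lowest, median and highest) in ISF and 75.8, 198 and 261 in SF (-2.55, SE 0.31, FDR 1.3e-08), without overlap. DQA (-1.86, SE 0.42, FDR 0.00075), DQB (-1.67, SE 0.35, FDR 0.00024), HLA-DOA (-1.85, SE 0.25, FDR 1.9e-07) and HLA-DOB (-2.05, SE 0.34, FDR 8.5e-06) were lower in all 7 horses. Class II genes have close copies in the genome, so reads may be divided between them.

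Of 21 genes known to rise when oxygen is low, 13 were higher in ISF and none lower (median 0.89), 13 with both covariates and 11 to 13 without any 1 horse. Under macrophage identity centring 13 were higher and 1 lower. BNIP3, a mitophagy receptor, measured 89.5, 320 and 1030 GeTMM in ISF and 38.7, 62.5 and 365 in SF (2.58, SE 0.38, FDR 9.7e-07) and was higher in 6 of 7 horses. ANKRD37 (3.01, SE 0.52, FDR 1.3e-05), AK4, a mitochondrial adenylate kinase (2.45, SE 0.47, FDR 7.7e-05), ERO1A, an oxidase of the endoplasmic reticulum (1.91, SE 0.28, FDR 5.4e-07), and P4HA1, a collagen prolyl hydroxylase (1.74, SE 0.26, FDR 8.3e-07), were higher too.

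Of 13 mitochondrially encoded genes, 5 were higher in ISF (median 0.69), 9 with horse as a replicate block, 2 without Dealings and 2 under macrophage identity centring.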
